A study of Homo sapiens with 27 samples.

Results

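The genes followed here at the DNA level were 8 drivers of glioblastoma: EGFR, PDGFRA, MET, PIK3CA, PIK3R1, NF1, RB1 and MDM2. They are among the genes most often altered in that tumour and were taken by name, with earlier results of these data known. Every marked guanine (G) with a score of 30 or more inside the gene body, as RefSeq gives it on GRCh38, was counted per gene and strand. The set is 8 of 19974 protein-coding genes on chromosomes 1 to 22 and X, and it held 23203 of 60533149 such G sites summed over all libraries.

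The sites came from O6-MeG-seq, which captures DNA fragments with an antibody to O6-methylguanine and reads the position at which a polymerase stalls. The cells were LN-229, an established glioblastoma line. One version was transfected with the repair gene MGMT (the MGMT line), and the other was its transfection control (WT). Each received 1 mM temozolomide (TMZ) or 1% DMSO as solvent, either 1 time or 3 times at 4 h intervals, and cells were harvested for DNA 24 h after exposure began. These 8 groups had 3 libraries each, called biological replicates in the design text. The last group, naked DNA, held 3 libraries of DNA that met 1 mM TMZ only after it had been extracted. Naked DNA replicate 1 came from non-transfected cells, replicate 2 from WT and replicate 3 from the MGMT line. All groups come from LN-229, and whether the MGMT line is a single clone is not stated in the labels. The lists show DNA sites and hold no level of MGMT protein or of any RNA.

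Temozolomide breaks down to a species that methylates DNA, and the adduct at the O6 position of guanine is the one that kills dividing cells when it is left in place. MGMT takes the methyl group off in a single step and is used up by doing so. The 8 genes cover the arms of signalling that glioblastomas alter most: receptor tyrosine kinases (EGFR, PDGFRA, MET), the PI3K enzyme they activate (PIK3CA, PIK3R1), the brake on RAS (NF1), the cell cycle brake RB1 and the p53 antagonist MDM2.

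The stretches just upstream of 5 transcript starts are shown because they are where single marked bases can be read against the letters around them. Each is the 250 bases before a RefSeq start on GRCh38.p14, plus strand, 5′ to 3′. Capitals mark positions where a G was listed in at least 1 of the 12 libraries of TMZ-treated cells: a capital G was marked on the plus strand, and a capital C is a G marked on the minus strand. The windows are chr7:55018767-55019016 for EGFR, chr7:116671946-116672195 for MET, chr12:68807922-68808171 and chr12:68808767-68809016 for the first start of MDM2 and a start 845 bases further in, and chr17:31094727-31094976 for NF1.
EGFR: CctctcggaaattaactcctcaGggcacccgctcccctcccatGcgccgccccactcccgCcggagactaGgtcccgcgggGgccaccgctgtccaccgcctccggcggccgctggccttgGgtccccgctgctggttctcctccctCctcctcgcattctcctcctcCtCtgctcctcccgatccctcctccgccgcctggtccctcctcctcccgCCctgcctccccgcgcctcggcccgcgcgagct
MET: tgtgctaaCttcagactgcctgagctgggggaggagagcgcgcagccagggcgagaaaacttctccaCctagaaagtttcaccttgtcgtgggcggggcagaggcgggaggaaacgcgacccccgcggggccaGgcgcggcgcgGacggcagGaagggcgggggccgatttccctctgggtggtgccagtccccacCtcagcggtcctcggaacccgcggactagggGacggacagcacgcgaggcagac
MDM2, first start: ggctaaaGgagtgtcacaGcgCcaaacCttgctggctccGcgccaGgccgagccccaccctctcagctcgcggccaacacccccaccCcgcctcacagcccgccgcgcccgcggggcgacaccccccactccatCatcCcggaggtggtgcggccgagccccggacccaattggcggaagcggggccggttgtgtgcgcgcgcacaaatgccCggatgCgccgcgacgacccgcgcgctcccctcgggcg
MDM2, further start: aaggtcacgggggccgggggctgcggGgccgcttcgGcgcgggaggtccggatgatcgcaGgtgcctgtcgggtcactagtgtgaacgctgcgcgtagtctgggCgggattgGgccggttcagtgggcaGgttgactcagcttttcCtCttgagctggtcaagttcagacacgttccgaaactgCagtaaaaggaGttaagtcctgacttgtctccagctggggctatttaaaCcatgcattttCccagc
NF1: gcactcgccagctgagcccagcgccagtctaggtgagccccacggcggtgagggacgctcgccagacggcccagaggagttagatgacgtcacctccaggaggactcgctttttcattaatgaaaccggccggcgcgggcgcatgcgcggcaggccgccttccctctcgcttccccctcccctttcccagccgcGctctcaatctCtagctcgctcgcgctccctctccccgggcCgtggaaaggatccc

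The EGFR window held 13 sites over the 12 TMZ libraries, at 12 positions, and 12 of the 13 followed a purine (A or G) on the marked strand. The same window held 11 sites over the 3 naked DNA libraries and 2 over the 12 solvent libraries. In MET the numbers were 7, 8 and 0, and all 7 TMZ sites followed a purine. The first MDM2 window held 11, 5 and 0 sites, and the further one 13, 5 and 1. The NF1 window held only 3, 2 and 0, and 1 of its 3 TMZ sites followed a purine. Over the 14 separate windows of the 8 genes (250 bases before to 50 after a start), 82 of 98 TMZ sites, 83.7%, followed a purine, whereas 57.1% of the Gs present there do. Over 34961 such windows of all genes the shares were 79.5% and 58.1%. Per 100 Gs, the pooled TMZ libraries marked 5.15 after G, 4.49 after A, 1.80 after C and 1.68 after T in the windows of all genes. The windows of the 8 genes therefore showed the lean towards a purine before the marked G that all windows showed, with counts too small to compare genes. At 100% of 589053 sites in these windows the listed base was the reference base.

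The depth of the lists set the precision for each gene. With a score of 30 or more, solvent libraries held 170288 to 826017 G sites, TMZ cell libraries 742216 to 5631616 and naked DNA 5268792 to 9079809. Under solvent 22.7% ± 7.06 of sites were at G, under TMZ 51.1% ± 10.8 (SD over 12 libraries each) and in naked DNA 69.0% ± 1.66 (SD over 3). Replicate 1 of the MGMT line under solvent, 1 exposure, stood apart with 43.5%. Libraries also fell into 5 sets by the sites at bases other than G that they shared, where 2 libraries were joined if they shared over 1.6 times as much as the median pair. The highest pair within a set shared 289 times as much, and 48 of the 85 pairs within sets passed the threshold. The other pairs were joined through further libraries. Pairs across sets lie below the threshold by construction, the highest at 1.40 times. Those of replicate 1 after 1 exposure made up set 1 together with naked DNA replicate 1. Set 2 joined replicate 2 after 1 exposure with replicate 1 after 3. Set 3 joined replicate 3 after 1 exposure, replicate 2 after 3 and the TMZ libraries of replicate 3 after 3. The solvent libraries of that replicate were set 4, and naked DNA replicates 2 and 3 were set 5. Values within sets stand beside the results on level, on the lines and on naked DNA.

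EGFR, the receptor of epidermal growth factor, lies at chr7:55019017-55211628 (gene ID 1956) and gave 20 to 1002 G sites per library. PDGFRA, the alpha receptor of platelet-derived growth factor, lies at chr4:54229293-54298245 (gene ID 5156) and gave 3 to 223. MET, the receptor of hepatocyte growth factor, lies at chr7:116672196-116798377 (gene ID 4233) and gave 12 to 541. PIK3CA, the catalytic subunit of PI3K, lies at chr3:179148126-179240093 (gene ID 5290), shares bases with KCNMB3 and gave 3 to 246. PIK3R1, the regulatory subunit, lies at chr5:68215756-68301821 (gene ID 5295) and gave 5 to 238. NF1, which switches RAS off, lies at chr17:31094977-31377675 (gene ID 4763), contains OMG, EVI2A and EVI2B and gave 11 to 803. RB1, the retinoblastoma protein that holds E2F factors back, lies at chr13:48303751-48481890 (gene ID 5925), contains LPAR6 and gave 6 to 440. MDM2, the ligase that degrades p53, lies at chr12:68808172-68850686 (gene ID 4193), shares bases with CPM and gave 1 to 111. MDM2 reached 10 G sites in 15 of 27 libraries and in 2 of 12 solvent libraries, so its solvent values rest on few sites. All 8 genes lie on the plus strand and passed the filter on low numbers, which asks for 10 or more sites in 3 or more libraries.

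The first question was whether TMZ marked these genes. Within each gene, the share of marked sites at G rose under TMZ in all 8. In EGFR it was 26.9% ± 9.74 under solvent and 55.0% ± 8.81 under TMZ (SD, n = 12 each), against 70.4% ± 4.15 (n = 3) in naked DNA. NF1 went from 18.8% ± 5.18 to 49.1% ± 10.3, with single solvent libraries at 13.2% to 31.7% and single TMZ libraries at 32.0% to 64.0%, so the treatments did not overlap. PIK3CA went from 18.1% ± 7.17 to 48.2% ± 11.1. MDM2, the gene with fewest sites, had solvent libraries from 6.25% to 66.7% (median 18.5%) and TMZ libraries from 34.4% to 71.2% (median 54.9%), which overlap. In naked DNA the 8 genes had 63.3% (PIK3CA) to 72.5% (PDGFRA) of sites at G.

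Taken as the ratio of G sites to sites at other bases, the rise was 3.49-fold in PDGFRA (log2 1.80, 95% interval 1.35 to 2.26) to 4.56-fold in PIK3CA (log2 2.19, 1.81 to 2.57). All 8 passed limma's test, with adjusted p between 3.46e-12 and 4.83e-07, and so did 95% of 18226 genes tested. The genes rose as the genome did. Relative to the ratio of the whole library none of the 8 differed between TMZ and solvent (log2 -0.24 to 0.20, limma adjusted p 0.649 to 0.947), where 0.104% of genes did. All 8 were called in WT cells after 1 exposure (background 72.8%), in WT cells after 3 (84.5%) and in the MGMT line after 3 (87.1%). In the MGMT line after 1 exposure only EGFR (log2 1.23, adjusted p 0.0336) and NF1 (1.11, adjusted p 0.0369) were called by limma, beside 14.2% of genes, and the other 6 had log2 values of 0.77 to 1.32. The solvent side of that comparison includes replicate 1 with 43.5% of sites at G, above the 37.3% of TMZ replicate 1. The comparison within the MGMT line after 1 exposure was not refitted without that solvent library. Within TMZ-treated cells, over both exposures, the ratio was called different between the MGMT line and WT in none of the 8 (log2 -0.62 to -0.03) and in 0% of all genes by limma, although 4142 genes had an unadjusted p under 0.05. The median of all genes in that comparison was -0.33. Whole TMZ libraries had 37.9% ± 5.66 of sites at G in the MGMT line and 46.4% ± 5.52 in WT after 1 exposure. After 3 exposures they had 58.1% ± 4.93 and 62.1% ± 2.23 (SD, n = 3 each). This difference between whole libraries was not tested. After 3 exposures the ratio was higher than after 1 in all 8 genes, by 0.69 (PIK3R1) to 1.15 (RB1) on the log2 scale, with limma adjusted p of 7.40e-06 to 0.0112 and a background of 77.1%.

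**Figure D1:**
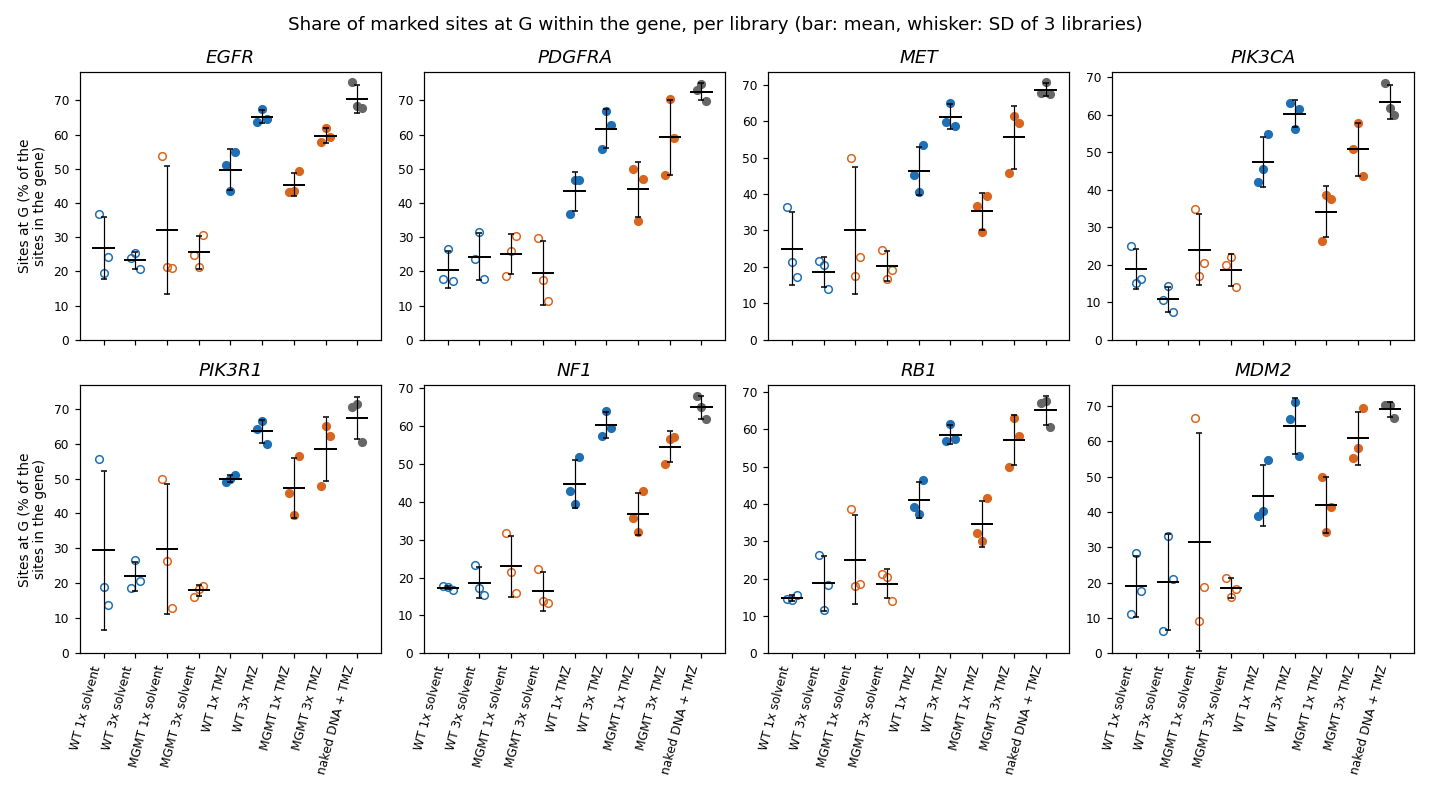
Share of marked sites at G within each of the 8 genes (y axis, percent of the sites in the gene) in the 9 groups (x axis). Circles are libraries, open for solvent, blue for WT, orange for the MGMT line and grey for naked DNA, and the bar and whisker are the mean and SD of 3 libraries. In NF1 every TMZ library, from 32.0%, lies above every solvent library, up to 31.7%, whereas MDM2 reaches 66.7% in a solvent library.

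The size of this rise differed between the sets of libraries. Set 1 holds cells of 1 exposure only, whereas sets 2 and 3 hold cells of 1 and of 3. A difference between set 1 and the others therefore cannot be told apart from one between exposures. In sets 2 and 3 the TMZ and solvent libraries did not overlap for any of the 8 genes, with differences in the log2 ratio of 1.22 to 2.38 and of 2.20 to 2.79. The share of all genes without overlap was not counted, here or in the other comparisons. In set 1, with 2 TMZ and 2 solvent libraries, the difference ran from -0.29 in PIK3R1 and -0.13 in MET through 0.11 in EGFR and 0.99 in NF1 to 1.62 in PDGFRA, and the treatments overlapped in 6 of the 8 genes. Set 1 holds the solvent library at 43.5% G. Without that library all 8 were still called, at log2 1.79 to 2.26, with 95.4% of genes called.

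The next question was whether a gene took a larger or smaller part of a library's G sites under TMZ than under solvent. This level was taken as G sites in the gene per 1000000 G sites of the library (GPM). It was called different by limma in none of the 8, while 10.6% of 17702 genes were called. The estimates ran from -0.14 in MET (log2, 95% interval -0.36 to 0.07) to 0.17 in PIK3R1 (-0.13 to 0.48), with adjusted p of 0.431 to 0.955. Nor was any of the 8 called within WT cells after 1 exposure (0% of genes; 1153 at an unadjusted p under 0.05) or 3 (0.322%), or within the MGMT line after 1 (0%; 1012) or 3 (1.13%). Of the 1882 genes called, 81.3% were higher under TMZ with the library total as the scale. That split was 54.9% of 3165 genes with the same scale and no filter on low numbers. It was 50.1% with a trimmed mean of log ratios and 51.8% with a median of ratios. Those scales moved the median gene by -0.11 and -0.10 on the log2 scale, and neither brought a member past the threshold. The number of exposures made no called difference in level for any of the 8 under TMZ (log2 -0.24 in PIK3R1 to 0.05 in EGFR, limma adjusted p 0.627 to 0.994). No gene at all was called in that comparison (0%; 1548 had an unadjusted p under 0.05).

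Within sets 1, 2 and 3 the signs of TMZ minus solvent differed in 7 of the 8 genes. PDGFRA had 1.06, -0.23 and -0.11, PIK3CA -0.38, 0.43 and -0.23, EGFR -0.05, 0.39 and 0.03, and RB1 0.23, -0.23 and 0.09. MET was lower under TMZ in each, by -0.36, -0.19 and -0.15. For 3 against 1 exposures, which sets 2 and 3 hold, PIK3CA (-0.35 and -0.27), PIK3R1 (-0.21 and -0.26) and NF1 (-0.16 and -0.06) were lower in both, and the other 5 had opposite signs.

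Per kilobase, which is the scale on which genes can be set side by side, EGFR had the highest level under TMZ at 0.535 ± 0.047 GPM per kb (SD, n = 12), then MET at 0.431 ± 0.100. The other 6 lay between 0.295 ± 0.077 (PIK3CA) and 0.344 ± 0.073 (PDGFRA) over both lines. Within WT cells the 6 NF1 libraries (from 0.346) lay above the 6 of RB1 (up to 0.298), and within the MGMT line MET, at 0.344 ± 0.028, lay below PDGFRA, at 0.368 ± 0.098 (SD, n = 6), with overlap. EGFR and MET also led in naked DNA, at 0.538 ± 0.033 and 0.453 ± 0.061 (SD, n = 3), where RB1 was lowest at 0.256 ± 0.015. Differences in base composition between genes enter these levels and were not separated from them.

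In EGFR, single libraries of WT cells under TMZ ran from 94.5 to 118 GPM with a median of 107, those of the MGMT line under TMZ from 92.1 to 113 with a median of 97.6, and naked DNA had 110, 103 and 97.9. Solvent libraries spread more widely, from 72.3 to 147, on 20 or more G sites each. Over both exposures the lines overlapped under TMZ, whereas after 3 exposures WT libraries (105 to 115) lay above those of the MGMT line (93.2 to 102; log2 difference -0.17, limma adjusted p 0.212, not called). PDGFRA had 20.4, 21.6 and 25.3 (lowest, median, highest) in WT cells under TMZ and 17.7, 24.7 and 36.4 in the MGMT line, around 21.2 to 28.1 in naked DNA, with overlap between the lines and with naked DNA.

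MET separated the lines. WT cells under TMZ had 60.2, 63.4 and 78.5 GPM (lowest, median, highest of 6), and the MGMT line had 39.6, 42.9 and 49.1. The highest library of the MGMT line lay below the lowest of WT. Under solvent the values were 47.0, 67.1 and 94.0 in WT and 38.6, 50.3 and 64.9 in the MGMT line, which overlap. Naked DNA had 59.6 and 63.4 in the replicates from non-transfected and WT cells and 48.5 in the replicate from the MGMT line. The order of group means under TMZ was WT 1 exposure (67.9 ± 9.25), WT 3 exposures (62.8 ± 2.63), the MGMT line 3 exposures (45.0 ± 3.58) and 1 exposure (41.8 ± 3.17; SD, n = 3 each). Neighbours within a line did not differ beyond their spread.

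NF1 also separated the lines. WT cells under TMZ had 97.9, 106 and 111 GPM, and the MGMT line had 63.9, 69.9 and 82.0, with no overlap. Under solvent WT had 64.6, 97.9 and 108 and the MGMT line 51.1, 55.3 and 87.2. In naked DNA the replicates from non-transfected and WT cells had 88.4 and 94.5 and the replicate from the MGMT line 54.7. The library made from the MGMT line was the lowest of the 3 naked DNA libraries in every one of the 8 genes except MDM2. Group means under TMZ were 107 ± 2.12 and 104 ± 6.83 in WT and 73.9 ± 6.97 and 66.2 ± 3.28 in the MGMT line (1 and 3 exposures, SD, n = 3 each).

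PIK3CA had 24.6, 30.8 and 37.2 in WT cells under TMZ and 15.0, 22.4 and 35.4 in the MGMT line, which overlap. Its regulatory partner PIK3R1 had 25.0, 27.9 and 32.0 against 20.5, 25.3 and 31.6. RB1 was tightly placed under TMZ, with 48.9, 51.3 and 53.2 in WT and 49.9, 54.8 and 59.0 in the MGMT line. MDM2 had 8.20, 12.5 and 15.7 against 10.5, 12.5 and 15.8.

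**Figure D2:**
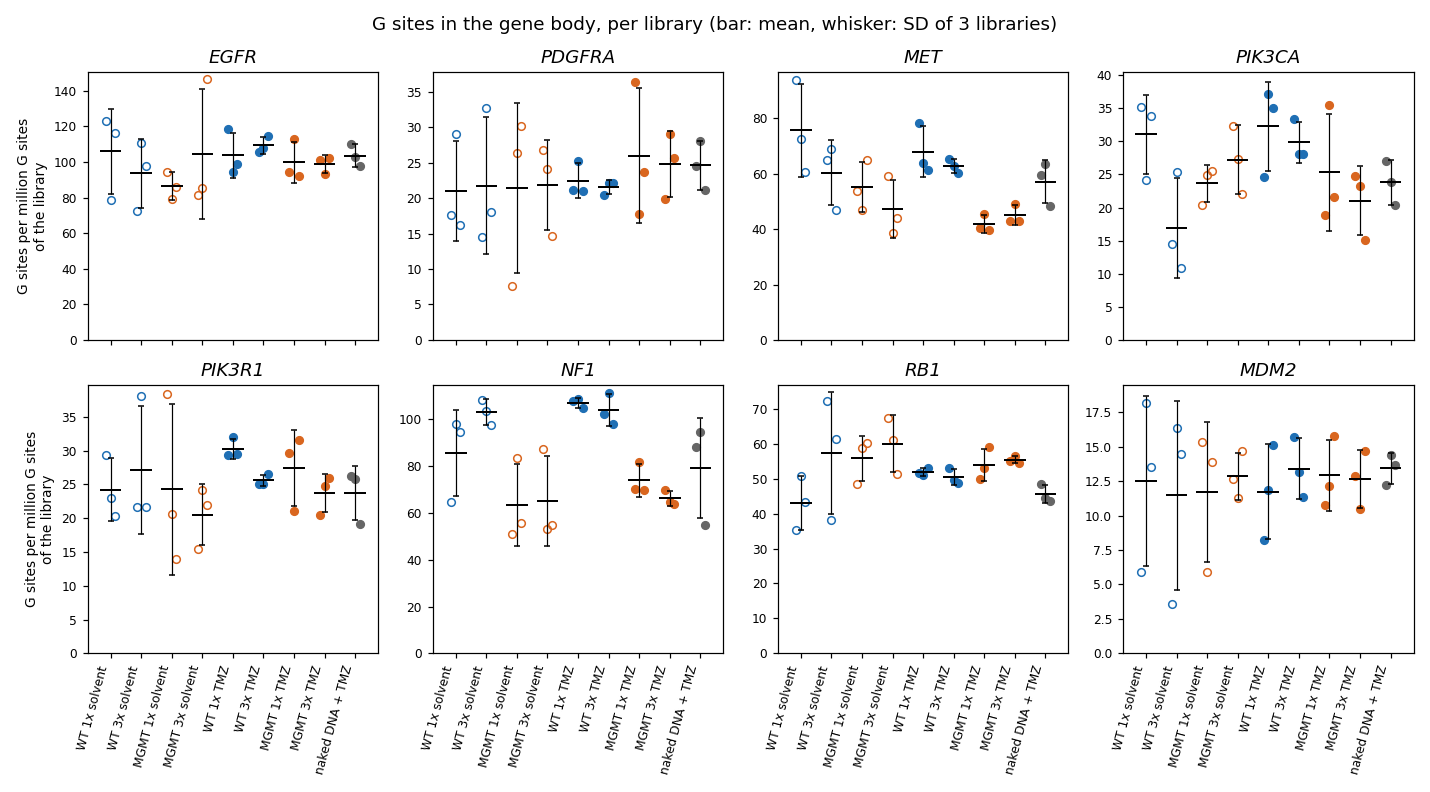
G sites in each gene body per 1000000 G sites of the library (GPM, y axis) in the 9 groups (x axis). Circles are libraries, open for solvent, blue for WT, orange for the MGMT line and grey for naked DNA, and the bar and whisker are the mean and SD of 3 libraries. Under TMZ all MGMT-line libraries lie below all WT libraries for MET (up to 49.1 against 60.2 and more) and NF1 (up to 82.0 against 97.9 and more), and the other 6 genes overlap.

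The comparison of the lines under TMZ asked whether cells with MGMT kept fewer marked Gs in any of these genes, relative to the rest of their genome. NF1, MET and PIK3CA were lower in the MGMT line, and none of the 8 was higher. Across all genes limma called 6.52%, of which 2.46% of genes tested were lower and 4.07% higher. How many of all genes had no overlap between the lines was not counted. NF1 was 0.661 times the WT level (log2 -0.60, SE 0.118, 95% interval -0.84 to -0.36, adjusted p 0.000751), with all 6 libraries below the 6 of WT. MET was 0.687 times the WT level (log2 -0.54, SE 0.106, -0.75 to -0.33, adjusted p 0.000651), again with all 6 below. PIK3CA was 0.722 times the WT level (log2 -0.47, SE 0.146, -0.76 to -0.17, adjusted p 0.0413), with overlap between the lines. EGFR (log2 -0.10, adjusted p 0.593), PIK3R1 (-0.11, 0.755), MDM2 (-0.00, 0.997), RB1 (0.11, 0.585) and PDGFRA (0.17, 0.643) were not called by limma, with 95% intervals reaching from -0.39 to 0.49 over the 5 genes.

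NF1 and MET passed in all 13 other ways of processing that were tried for this comparison, with limma adjusted p of 2.53e-09 to 0.0470 for NF1 and 6.44e-06 to 0.0243 for MET. PIK3CA passed in 5 of the 13 (0.00943 to 0.487). Its call ended, among others, without replicate 1, 2 or 3 (adjusted p 0.0755, 0.0976 and 0.487) and with the sets of libraries as a block (0.341). Within sets 1, 2 and 3 the difference was -0.94, -0.55 and -0.49 for MET and -0.62, -0.48 and -0.66 for NF1, and -0.37, -0.24 and -0.62 for PIK3CA. After 3 exposures alone NF1 (log2 -0.66, adjusted p 0.000205) and MET (-0.45, adjusted p 0.00462) were called by limma where 6.62% of genes were called and 2.71% were called lower. After 1 exposure none of the 8 was (0.0339% of genes), with the lowest adjusted p at 0.185.

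The same genes were then read through sites at bases where O6-methylguanine cannot form, A, C and T, in the same TMZ libraries. NF1 was lower in the MGMT line by nearly the same amount (log2 -0.55, 95% interval -0.68 to -0.42, limma adjusted p 1.34e-09), and so was MET (-0.42, -0.59 to -0.25, adjusted p 0.000222). The background of called genes was 14.3% of 15096, with 6.65% lower. PIK3CA at these bases had -0.18 (-0.40 to 0.04, limma adjusted p 0.321) and was not called, and neither were the remaining 5. All 8 estimates lay below 0, from -0.55 to -0.05, where the median of all genes was -0.05. In 4 of the 8 the unadjusted p by limma was under 0.05, as in 3863 of the 15096 genes.

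Solvent-treated cells gave a measure without the drug. There, sites of all bases per 1000000 sites (SPM) stand in for how much DNA of a gene was present, since solvent libraries mark all bases; copy number itself was not measured. NF1 had 101, 111 and 122 SPM (lowest, median, highest of 6) in WT and 68.2, 76.2 and 86.4 in the MGMT line, and MET had 64.7, 67.1 and 71.7 against 43.8, 49.8 and 55.2. Neither gene's lines overlapped. The differences were -0.56 for NF1 (SE 0.0703, 95% interval -0.70 to -0.42, limma adjusted p 7.26e-07) and -0.42 for MET (SE 0.0835, -0.59 to -0.25, adjusted p 0.000741). Among all genes 10% were called and 3.8% were lower. In sets 1 to 4 the difference was -0.53, -0.44, -0.64 and -0.62 for NF1 and -0.62, -0.38, -0.42 and -0.56 for MET. MET lost its call without replicate 3 (adjusted p 0.0606) and with no minimum score (0.0727), with its direction kept. PIK3CA (-0.27, -0.51 to -0.02, adjusted p 0.176) and PIK3R1 (-0.26, -0.56 to 0.03, adjusted p 0.304) had no call by limma, with overlap between the lines. In sets 1 to 4 PIK3CA differed by -0.61, 0.00, -0.62 and 0.10 and PIK3R1 by 1.13, -0.51, -0.29 and 0.09, so neither kept a direction, and PIK3R1 ran from -0.34 to -0.06 over the alternatives. By the far fewer solvent sites at G alone none of the 8 was called (0.0113% of genes), with -0.56 for NF1 (adjusted p 0.442) and -0.37 for MET (adjusted p 0.550) by limma.

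The difference was then read in naked DNA, where no cell acted on the adducts. The MGMT line has 1 library there, the lowest of the 3 in 7 of the 8 genes, so a difference between the lines cannot be told apart from a trait of that library, and the values are given as a description. Between that library and the 2 from cells without the transfected gene, NF1 differed by -0.72, PIK3R1 by -0.44 and MET by -0.33 on the log2 scale. The MGMT line was also set against its own naked DNA, and WT against the 2 libraries from non-transfected and WT cells. The difference between the lines under TMZ was then 0.12 in NF1, -0.21 in MET and -0.12 in PIK3CA (log2), again resting on that 1 library.

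**Figure D3:**
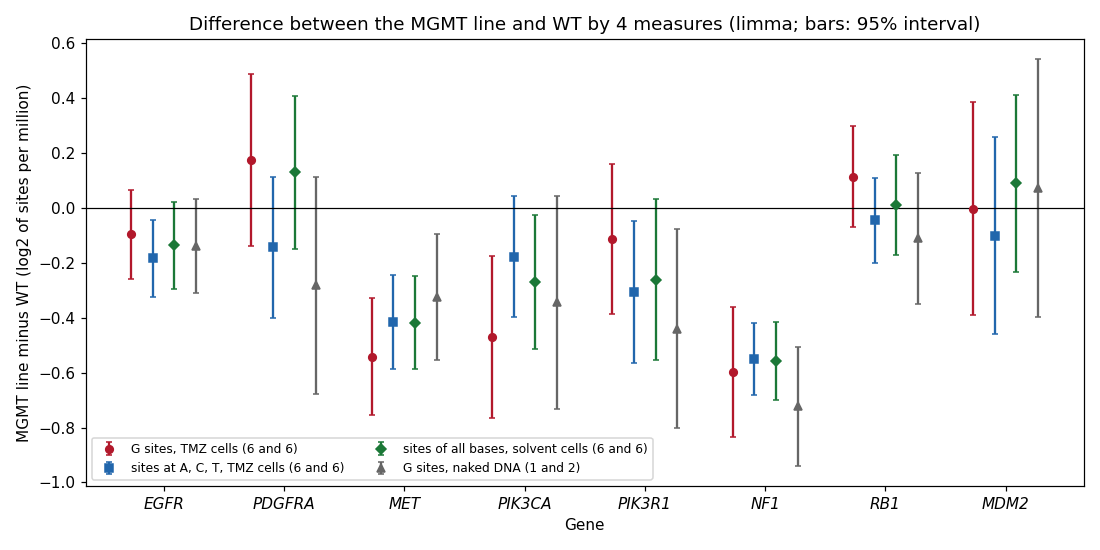
MGMT line minus WT (y axis, log2, level in the library) for each of the 8 genes (x axis) by G sites in TMZ-treated cells, sites at A, C and T in the same cells, sites of all bases in solvent-treated cells, and G sites in naked DNA. Points are limma estimates with 95% intervals, which for naked DNA take the spread from the other groups. For NF1 the estimates are -0.60, -0.55, -0.56 and -0.72, and for MET -0.54, -0.42, -0.42 and -0.33, with the last of each from 1 MGMT-line library against 2.

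Whether the response to TMZ itself differed between the lines was tested as an interaction, TMZ minus solvent in the MGMT line against the same in WT. None of the 8 was called by limma, and 0.00565% of genes were. NF1 had -0.03, MET -0.17 and RB1 -0.18. PIK3CA had the largest estimate at -0.66 (95% interval -1.31 to -0.00, unadjusted p 0.0492, adjusted p 1.0), with solvent libraries at 10.9 to 35.2 GPM in WT and 20.4 to 32.4 in the MGMT line. The intervals of these estimates are wide, and a difference of the size seen between the lines lies inside that of PIK3CA.

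The difference was traced along the chromosomes in bins of 1 Mb out to 5 Mb on each side of a gene's midpoint. Bins with 50 or more sites in every library were kept. Bins elsewhere in the genome were not counted, so the numbers of bins without overlap have no background. Around MET all 10 bins had fewer solvent sites in the MGMT line, by -0.44 to -0.18 on the log2 scale, and the 6 libraries of one line did not overlap the 6 of the other in any of them. Chromosome 7 as a whole differed by -0.09, and EGFR on the same chromosome had 8 bins between -0.18 and -0.01, all with overlap. Around NF1 the difference was -0.43 to -0.65 from 5 Mb before the midpoint to 1 Mb after it, -0.24 in the next bin and 0.00 to -0.10 from there on, with no overlap in 3 bins, while chromosome 17 as a whole differed by -0.01. The sites at A, C and T under TMZ gave -0.71 to -0.39 in the first 6 of those bins and -0.33 in the next, with no overlap in these 7. The same sites gave -0.49 to -0.24 around MET, with no overlap in 8 of 10 bins, -0.33 to -0.21 around PIK3CA, with none in 6 of 10, and -0.18 to -0.12 around PIK3R1, with none in 5 of 9. Around PIK3CA all 10 bins were lower under solvent, by -0.35 to -0.22, and 7 did not overlap, with chromosome 3 at -0.13. Around PIK3R1 all 9 bins were lower, by -0.32 to -0.16, and 4 did not overlap, with chromosome 5 at -0.14. PDGFRA, RB1 and MDM2 had bins between -0.13 and 0.11, every one with overlap. Under solvent MDM2 was below 0 in 10 of 10 bins, RB1 in 8 of 10 and PDGFRA in 3 of 8. Chromosome 12, which holds MDM2, differed by -0.06 as a whole. Taken whole under solvent, chromosomes 3, 5, 7 and 12 had no overlap between the lines, whereas chromosomes 4, 13 and 17 did.

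**Figure D4:**
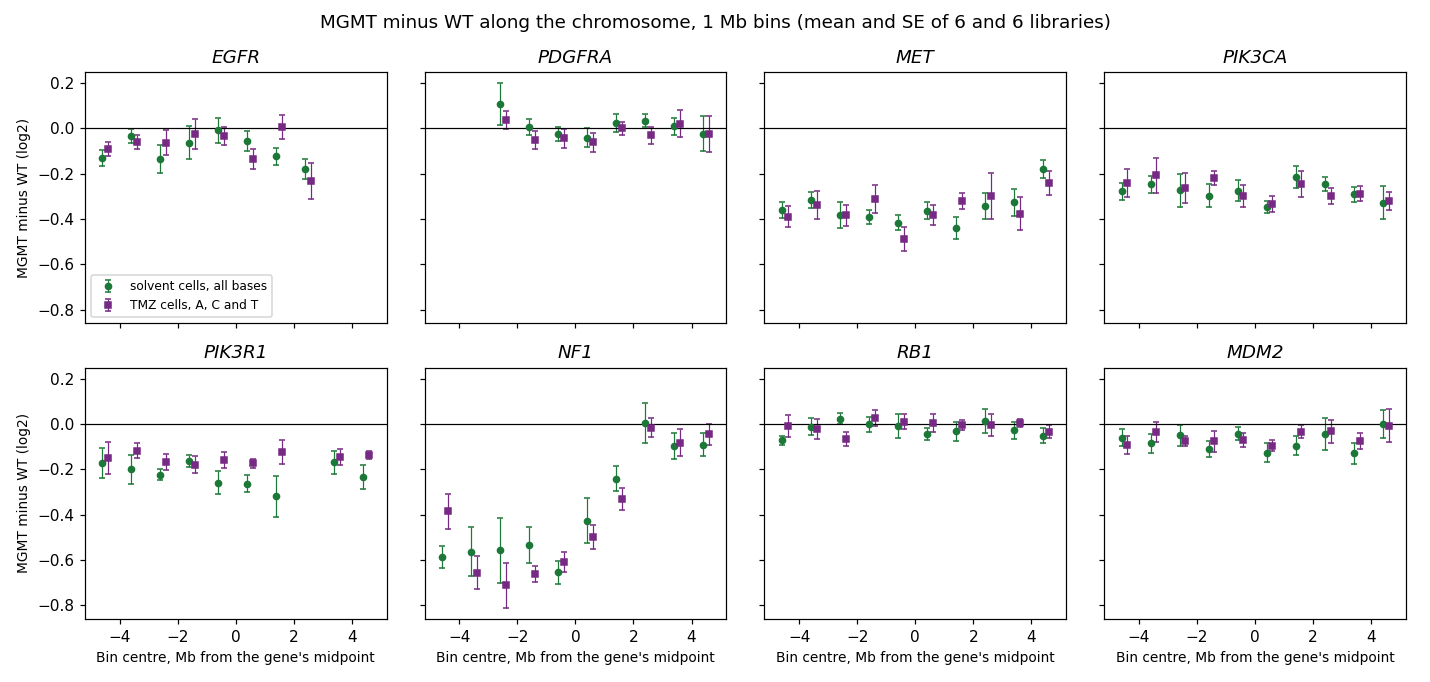
MGMT line minus WT (y axis, log2, level in the library) in 1 Mb bins by distance from each gene's midpoint (x axis, Mb), for sites of all bases in solvent-treated cells (green circles) and sites at A, C and T in TMZ-treated cells (purple squares). Points are differences of the means of 6 libraries per line with their SE. Around MET every bin lies below 0, around NF1 the bins up to 2 Mb past the midpoint do, with -0.24 under solvent in the last of them, and the 3 further on lie between -0.10 and 0.00, and around RB1, PDGFRA and MDM2 the solvent bins run from -0.13 to 0.11.

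Protein-coding genes next to the members followed the bins in part. RAB11FIP4, beside NF1, was lower in the MGMT line by G sites under TMZ (log2 -0.54, limma adjusted p 0.00404) and by all bases under solvent (-0.49, adjusted p 0.00432). CAV1 (-0.60, limma adjusted p 0.0106) and CAPZA2 (-0.48, adjusted p 0.0352), beside MET, were lower by G sites under TMZ and had -0.17 and -0.23 under solvent without a call. CAV2, also beside MET, had -0.29 by G sites under TMZ and -0.77 under solvent, neither called. ZMAT3, beside PIK3CA, was lower under solvent (-0.40, limma adjusted p 0.0210) and had -0.38 by G sites under TMZ without a call (adjusted p 0.252), and KCNMB3, its other neighbour, had -0.25 under solvent and -0.04 under TMZ, neither called. None of the neighbours of EGFR, PDGFRA, RB1, MDM2 or PIK3R1 was called in either measure.

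As a dosage within a line, solvent sites per kb were set against the median of 10600 autosomal genes of at least 20 kb. MET stood at 0.59 ± 0.05 above it in WT (log2, SD, n = 6), percentile 93.8 of those genes, and at 0.13 ± 0.17 in the MGMT line, percentile 64.1. NF1 stood at 0.14 ± 0.12 in WT (percentile 66.0) and -0.41 ± 0.16 in the MGMT line (percentile 12.5). EGFR stood at 0.31 ± 0.13 and 0.19 ± 0.12, RB1 at 0.00 ± 0.15 and -0.01 ± 0.18, MDM2 at -0.20 ± 0.23 and -0.19 ± 0.23, and PDGFRA at -0.29 ± 0.29 and -0.21 ± 0.23. PIK3R1 was low in both lines, at -0.39 ± 0.37 and -0.45 ± 0.32, and PIK3CA was at 0.06 ± 0.17 and -0.23 ± 0.25. By this measure EGFR, PDGFRA and MDM2, which glioblastomas often amplify, lay within the range of ordinary genes in both lines, between percentiles 17.9 and 80.2. A gene's place depended on the kind of library. Over both lines RB1 stood at -0.01 ± 0.16 under solvent, -0.27 ± 0.10 under TMZ and -0.53 ± 0.10 in naked DNA. EGFR stood at 0.25 ± 0.13, 0.35 ± 0.12 and 0.43 ± 0.06 (SD, n = 12, 12 and 3). Base composition was not separated from these values, so the percentiles are not copy numbers. As a check of the measure, CDKN2A, an inhibitor of cyclin-dependent kinases, had 0 sites over the 6 WT solvent libraries and 1 over the 6 of the MGMT line, while KCNMB3, of nearly the same length (27.3 against 27.6 kb), had 134 and 118.

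Set against naked DNA, the level of G sites in TMZ-treated cells was called different by limma in none of the 8 genes, where 0.706% of 17702 genes were called. RB1 came closest, at 1.16 times the level of naked DNA (log2 0.21, SE 0.0718, 95% interval 0.07 to 0.36, adjusted p 0.165). Its 12 TMZ libraries ran from 48.9 to 59.0 and its naked DNA libraries were 48.5, 44.6 and 43.5, without overlap. The solvent libraries of RB1, at 35.2 to 72.3, spanned both. With naked DNA taken from the same line, NF1 was 1.22 times as high in cells as in naked DNA (log2 0.29, 0.15 to 0.42, limma adjusted p 0.0174), beside 1.08% of genes called. That call rests on 1 naked DNA library of the MGMT line, which the fit assumes to vary like the other groups, so it says nothing of that library apart from the line. In set 1, which holds 1 naked DNA and 2 TMZ cell libraries, the plain difference was 0.08 in RB1, against 0.22 over all libraries, and -0.02 in NF1, against 0.16. None of the 8 was called in a single TMZ group set against naked DNA, with backgrounds of 0.0113% and 0.0452% for WT (1 and 3 exposures) and 0.266% and 3.58% for the MGMT line. The same held for the solvent groups, with 1.24% and 0.548% for WT and 0.531% and 7.06% for the MGMT line.

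The coding strand, here always the plus strand, carried 49.7% (MET) to 58.1% (MDM2) of TMZ sites pooled over libraries, and 50.5% (MET) to 57.6% (PDGFRA) of naked DNA sites. In NF1 it held 1692 TMZ sites against 1364 on the other strand, with 51.4% in the lowest of 12 TMZ libraries, and 899 against 730 in naked DNA. No test against an even share was made. The balance in TMZ-treated cells was not called different from naked DNA for any of the 8, nor for any of 14175 genes (0%; 1030 had an unadjusted p under 0.05, limma). The log2 difference of the coding-strand ratio furthest from 0 was 0.37 in MDM2 (95% interval -0.03 to 0.78, adjusted p 0.702), with a plain difference of 0.56 in set 1. Against solvent the coding-strand ratio was higher under TMZ by 0.90 on the log2 scale in PDGFRA (0.38 to 1.41, unadjusted p 0.000924, adjusted p 0.160), by 0.63 in PIK3R1 (0.17 to 1.09) and by 0.46 in RB1 (0.14 to 0.79), none of them called, beside 0.0988% of genes. Solvent libraries put 39.9% of PDGFRA sites on the coding strand, from 0 in one library to 53.8% in another.

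Along the gene, with each cut into 10 equal parts, the part nearest the start held 17.1% of the TMZ sites of PDGFRA and 18.9% of its naked DNA sites, and 13.6% and 16.8% in RB1. In MDM2 the first part held 16.9% of TMZ sites and 11.2% of naked DNA sites, on 74 and 30 sites, and the last part 9.79% and 14.1%. In PIK3R1 the first part held 11.9% and 16.0%, and in PIK3CA the third part 11.9% and 8.10%. In NF1 the sixth part held most, 13.7% and 14.1%. These differences between TMZ and naked DNA were not tested. Few positions recurred: between 5.61% (NF1) and 8.30% (MET) of distinct G positions of a gene were listed in 2 or more of 27 libraries. Of these recurring positions 30.4% (NF1) to 37.6% (PDGFRA) lay in libraries of 1 set only. As a share of all distinct G positions of a gene, those in 2 or more sets made up 3.81% (RB1) to 5.68% (MET). The most repeated was a G on the minus strand of EGFR at chr7:55109127, in 5 TMZ, 0 solvent and 2 naked DNA libraries of 4 sets, then a G on the plus strand of NF1 at chr17:31129189, in 5, 0 and 1 of 4 sets. These positions were picked for their counts and are descriptions.

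A list of 49 further genes of the same pathways showed how its other members moved. Between TMZ and solvent, limma called 6 of 46 tested higher and 1 lower, where 10.6% of all genes were called, with a median of 0.10 that equals the 0.10 of all genes. CCND1, cyclin D1 (log2 1.19, adjusted p 0.00256), the receptor FGFR3 (1.07, adjusted p 0.00647) and the transcription factor E2F1 (1.07, adjusted p 0.00821) were the highest, and the receptor ERBB4 was lower (-0.20, adjusted p 0.0109). Between the lines under TMZ, 6 of 46 were higher in the MGMT line and 2 lower, where 6.52% of all genes were called (median -0.05, all genes -0.03). The kinase MTOR (0.62, adjusted p 0.000396) and the chromatin remodeller ATRX (0.37, adjusted p 0.0157) were among those higher, and the kinase CDK6 (-0.53, adjusted p 0.000235) was among those lower, all by limma. By all bases under solvent, 7 of 44 were higher and 4 lower, where 10% of all genes were called (median -0.00, all genes -0.03), with MTOR (0.52), RBL2, a relative of RB1 (0.49), and ATRX (0.46) highest, and PIK3CG, another catalytic subunit of PI3K (-0.53), CDK6 (-0.46) and the checkpoint kinase CHEK2 (-0.36) lowest. MTOR, ATRX and CDK6 therefore differed between the lines in the same direction with and without the drug. Against naked DNA, 2 of 46 were higher in TMZ-treated cells by limma, where 0.706% of all genes were called, among them the kinase BRAF (0.29, adjusted p 0.0153). None of the list was called for the number of exposures, for the difference in response or for the coding strand.

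By the correlation of 9 group means of level with the mean profile of the 8 genes, the most alike genes on other chromosomes were NDUFAF5 (r 0.98) and DZANK1 (r 0.87) on chromosome 20 and TICRR (r 0.88) on chromosome 15, out of 5876 candidates with as many G sites. The groups share depth and sets, so this is a description. Among the 8 genes themselves, over 27 libraries, MET and NF1 had the highest correlation of levels (r 0.51) and EGFR and RB1 the lowest (r -0.62).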

How the data were processed

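Per the labels' protocols, sheared DNA was joined to adapters, enriched for O6-methylguanine by immunoprecipitation, marked where a polymerase stalled and depleted of unwanted fragments. Per the submitters' processing notes, FastQC 0.11.9, Trimmomatic 0.38 and 0.39, cutadapt, Bowtie2 2.3.5.1, SAMtools 1.12, GATK 4.2.0.0 and bedtools 2.29.2 were used on GRCh38; their order and settings are not given in the sources used here. The authors deposited 1 list per library of chromosome, position, strand, base and a score from 0 to 42; each position and strand stands once, so the score is not a number of reads, and a gene's number of distinct sites was tested. Fragments that share a site count as 1, which compresses high levels.

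Sites with a score of 30 or more on chromosomes 1 to 22 and X were counted per RefSeq gene body (GRCh38.p14). limma 3.58.1 (voom, lmFit, eBayes; R 4.3.3) was fitted over all 27 libraries with 9 group means, with library totals as scale, a filter asking for 10 or more sites in 3 or more libraries, and Benjamini-Hochberg adjustment over all genes tested, called at 0.05. The 12 solvent libraries were fitted alone for the sites of all bases. Strand ratios and ratios of G to other bases used log2 with a prior of 0.5 sites and weights from the counts. All intervals are 95% and cover the spread between these libraries. The fits were tested on simulated data. Positions are counted from 1.

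The members and lists were chosen with earlier results of these data known. All 8 members were named; other pathway genes were named if called, at most 3 per direction by size, with CDKN2A as a check, and the most alike genes by correlation. The ratio of G to other bases, the sites at bases other than G and the bins were added after the data were seen. So were the weighting of naked DNA by line and the fit without 1 solvent library. Same-numbered libraries deviated together in part only (above r 0.1 in 7 of 12 pairs of lines over 2846 bins, r -0.04 to 0.59). The main fits used no block and so took all libraries as independent, which the linked pairs are not. Alternatives covered the score, the filter, the scale, the model, repeated sites, left-out replicates and blocks. Some genes that this rule names are not reported here. Transcript-level features such as exons were not used here.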

Additional observations from a re-analysis of the deposited data

Results flagged for a closer look

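Each group of 6 libraries of a line and treatment was checked for a library far from the others, 32 groups in all, of which chance marks about 1 in 20. In 5 groups 1 library stood apart. In MET, replicate 1 of WT cells after 1 exposure to TMZ had 78.5 G sites per 1000000 G sites of the library (GPM), with the nearest of the other 5 at 65.4. In NF1, replicate 2 of the MGMT line after 1 exposure to TMZ had 82.0, with the nearest at 70.1. In PDGFRA, replicate 2 of WT cells after 1 exposure to TMZ had 25.3, with the nearest at 22.2. By sites of all bases, EGFR had 90.4 sites per 1000000 sites in replicate 3 of the MGMT line after 3 exposures to solvent, with the nearest at 78.9, and RB1 had 52.6 in replicate 3 of WT cells after 1 exposure to solvent, with the nearest at 64.3. The causes were not tested. For MET and NF1, the lines did not overlap under TMZ with these libraries in place.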

How the results depend on the processing

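Of the values of the 8 genes over the alternatives, 709 kept their side of the threshold, of which 80, none of them called, changed sign (MDM2 between the lines ran from -0.09 to 0.09 under TMZ and from -0.08 to 0.19 under solvent, and RB1 under solvent from -0.10 to 0.12). The remaining values kept their sign, with 1 call gained and 10 lost. The lost calls were 8 of PIK3CA between the lines under TMZ and 2 of MET under solvent. For PIK3CA the limma adjusted p was 0.0526 with a trimmed mean, 0.0580 with no filter and 0.475 with limma-trend, beside those in the report. Under solvent, no minimum score left 1 of the 8 called and leaving out a replicate left 1 to 2. The gain was NF1 with naked DNA weighted by line, which rests on 1 naked DNA library of the MGMT line. Counts over all genes moved more. For TMZ against solvent (1882) they were 3163 with no minimum score, 3165 with no filter, 2528 without the solvent library at 43.5% G, 776 with the sets as a block and 221 to 1657 without a replicate. For the lines under TMZ (1155) they were 188 with limma-trend, 1969 with only the groups compared, 1255 without that library, 227 with the set block and 280 to 873 without a replicate; with no minimum score the higher share was 51.6% in place of 62.3%. For exposures (0) they were 184 with no minimum score, 51 with only the groups compared, 1 with repeated sites left out, 1 with the set block and 0 to 18 without a replicate. For cells against naked DNA (125) they were 11 with a trimmed mean, 0 with limma-trend, 6 with the set block, 192 with naked DNA of the same line, 248 without that library and 0 to 316 without a replicate. For the difference in response (1) they were 0 with limma-trend, with repeated sites left out and without that library, and 0 to 1 without a replicate. For the lines under solvent (1470) they were 380 with no minimum score, 785 with limma-trend, 1912 without that library, 773 with the set block and 246 to 1748 without a replicate. For the coding strand (0) they were 6 with no minimum score and 13 with a prior of 2 sites. The replicate number as a block gave 1241, 354 and 13 genes for TMZ against solvent, the lines under TMZ and cells against naked DNA, and ended PIK3CA's call (limma adjusted p 0.206). Pairing by number held for part of the libraries only. TMZ and solvent were above r 0.1 in 6 of 12 pairs (r -0.07 to 0.65), and exposures in 2 of 6 (r -0.40 to 0.43). Of the left-out replicates, replicate 2 gave the lowest count for TMZ against solvent, the lines under TMZ and cells against naked DNA, and replicate 3 for the lines under solvent; the causes were not tested. Depth limits MDM2, PIK3CA, PDGFRA and PIK3R1 most, with 1 to 5 G sites in the shallowest library.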
